A study of Mus musculus with 20 samples.

Results

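The apolipoprotein L genes examined here were Apol6, Apol7a, Apol9a, Apol9b, Apol10a and Apol10b, 6 genes measured by 11 probes out of 56605 probes and 25043 named genes on the array. A probe was taken when the gene name given by the array design was one of these symbols. The 6 genes were selected on the measured differences of these same arrays. Their values and limma calls, also those of alternative fits, are therefore given as a description and not as independent tests. Apolipoprotein L proteins share a name with the apolipoproteins that carry fat in the blood, but most of them have no secretion signal and remain inside the cell, where they associate with membranes and lipids. In the mouse the family is a cluster of duplicated genes, several of which respond to interferon, and the Apol9a and Apol9b proteins bind the membrane lipid phosphatidylethanolamine. Interferon-stimulated genes are switched on through short promoter elements, one called the ISRE and another called GAS.

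Transcripts were measured in intestinal tissue of C57BL6/j mice with 20 1-colour microarrays, 1 per mouse. Cre control mice (6 arrays) carried the VillinCreER/0 transgene, a recombinase activated by tamoxifen and made in gut epithelium under the Villin promoter. BRAFV600E mice (6 arrays) carried the same transgene and 1 copy of the BrafV600E-LSL allele, so that tamoxifen switched on the mutant kinase in the epithelium. These 12 mice were 8 to 12 weeks old, and tissue was taken 3 days after the last of 3 daily doses of 2 mg tamoxifen. The Vehicle and MEKi groups had 4 arrays each and came from mice with the mutant allele, a genotype taken from the legends and not from the labels. They were given tamoxifen on 2 days and then either carrier or PD184352, an inhibitor of the kinase MEK, on 3 days. Tamoxifen and the Cre transgene were therefore common to all groups. The first comparison asks what the mutant kinase changes and the second what MEK inhibition changes in mutant tissue. The tissue held many cell types, and fewer cells of a type and less RNA per cell cannot be told apart in such samples.

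Between 60.8% and 76.8% of spots were well above background and 0 were saturated on every array. BRAFV600E replicates 1 and 2 were on slide 1 together with all Cre controls. The other 4 BRAFV600E arrays were alone on slide 2, where the spike-in slope was 0. The treated mutant mice were on slide 3, with MEKi in row 1 and Vehicle in row 2, so that row and treatment cannot be told apart. All 12 epithelial markers and all 14 mature enterocyte markers were measurable. Levels below are log2 processed signals with the 75th percentile of the array set to 0, and a level of 1 probe is compared only with the level of the same probe on other arrays. Differences and their SE come from limma, for the brightest probe of a gene from a fit over genes and for its other probes from a fit over every probe.

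The probes of Apol9a and Apol9b are shown first because they measure near-identical transcripts. Each is 60 bases long and the pair differ at 3 positions, all within the first 30 bases, which are printed here with the differing bases in capitals. Counted from 1 at the 5′ end of the probe, the changes from Apol9a to Apol9b were C5G, G8A and T29G. The stretches lie at chr15:77234251-77234280 on the minus strand and chr15:77566751-77566780 on the plus strand of build mm9.
Apol9a: agccCacGcccatcctcaggcatgtcatTg
Apol9b: agccGacAcccatcctcaggcatgtcatGg
A probe with so few differences may bind both transcripts, so the Apol9a and Apol9b values are not separate measurements of 2 genes. Of the 3 Apol10b probes, the one at chr15:77426425-77426484 (minus strand, mm9) was listed by the design for Apol10b, Apol11a and Apol11b at once and cannot be given to 1 gene. The other Apol10b probes lie at chr15:77414593-77414652 and chr15:77415509-77415568 and were listed for Apol10b alone. The position of the probes within exons was not analysed here.

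Promoters are shown because interferon-stimulated genes rose under MEKi, as given further on. RefSeq promoters (GRCm38.p6, 250 bases before to 50 after a start site) were given for 5 of the 6 members and were read in the 250 bases before the start, in all annotated starts. The ISRE core was searched as GAAA, any 2 bases and GAAA, and GAS as TTCNNNGAA, on both strands. A match before the start was found for the ISRE core in 3 of the 5 members (Apol9a, Apol9b and Apol10a), against 2.98% of all 32851 promoter windows, and for GAS in 1 (Apol10a, 232 bases before the start) against 7.02%. The member counts are per gene over all its starts, 7 windows in all, whereas the percentages are per window. The ISRE match was not particular to the members, since 4 of 6 other family genes with a promoter entry also had it (Apol7c, Apol7e, Apol11a and Apol11b). The windows of 30 bases around the ISRE matches, read on the strand of the gene so that the core appears as its reverse complement, are given with the matched bases in capitals.
Apol9a: gtgagacTTTCAGTTTCCATTTCccagttg
Apol9b: gtgagacTTTCAGTTTCCATTTCccagttg
Apol10a: gaaatttttcTTTCACTTTCatgcattggg
Apol10b: gaaattttacTTTCATTTTCgtgcactgag
Apol11b: gaatttttacTTTCACTTTCatgcactggg
In Apol9a (chr15:77411117-77411146, minus strand) and Apol9b (chr15:77729028-77729057, plus strand) 2 overlapping matches formed a block of 16 bases, ending 43 and 21 bases before the outermost annotated start. Apol10a (chr15:77476986-77477015, plus strand) had 1 match ending 41 bases before its start. The Apol10b match (chr15:77596110-77596139, minus strand) lay across the annotated start and ended 6 bases after it, so it is not in the count above. Apol11b (chr15:77643317-77643346, minus strand) is not a member and is shown because it shares a probe with Apol10b. The promoters are copies of each other in part. The 250 bases before the outermost starts of Apol9a and Apol9b aligned over 228 bases without a difference, and those of Apol10a and Apol11b were identical at 87.6% of 249 aligned bases, so matches in related genes are not independent. Apol7a had no match for either motif. A match describes letters in a window and does not show that a factor binds there.

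Of the 9 member probes that could be measured, the Apol10a probe had the largest difference under MEKi. On the single Apol10a probe (chr15:77320890-77320949, mm9) the 4 Vehicle arrays read 2.22, −0.49, 2.13 and 1.46 and the 4 MEKi arrays 5.21, 4.92, 5.13 and 4.57. Every MEKi array lay above every Vehicle array, with Vehicle replicate 2 the lowest of the 8. The difference was 3.63 on the log2 scale (SE 0.56), or 12.4-fold. In the first comparison the same probe read from 2.19 to 4.80 with a median of 3.13 on the Cre control arrays and from −2.83 to 2.71 with a median of 0.55 on the BRAFV600E arrays. The groups overlapped, with 4 of 6 BRAFV600E arrays below all Cre control arrays, and the difference was −2.93 (SE 0.90), or 7.62-fold lower in BRAFV600E. BRAFV600E replicates 1 and 2, which shared slide 1 with the controls, read −1.66 and −2.83, whereas the 4 arrays of slide 2 ran from −0.34 to 2.71. Within slide 1 the difference was −5.48.

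**Figure D1:**
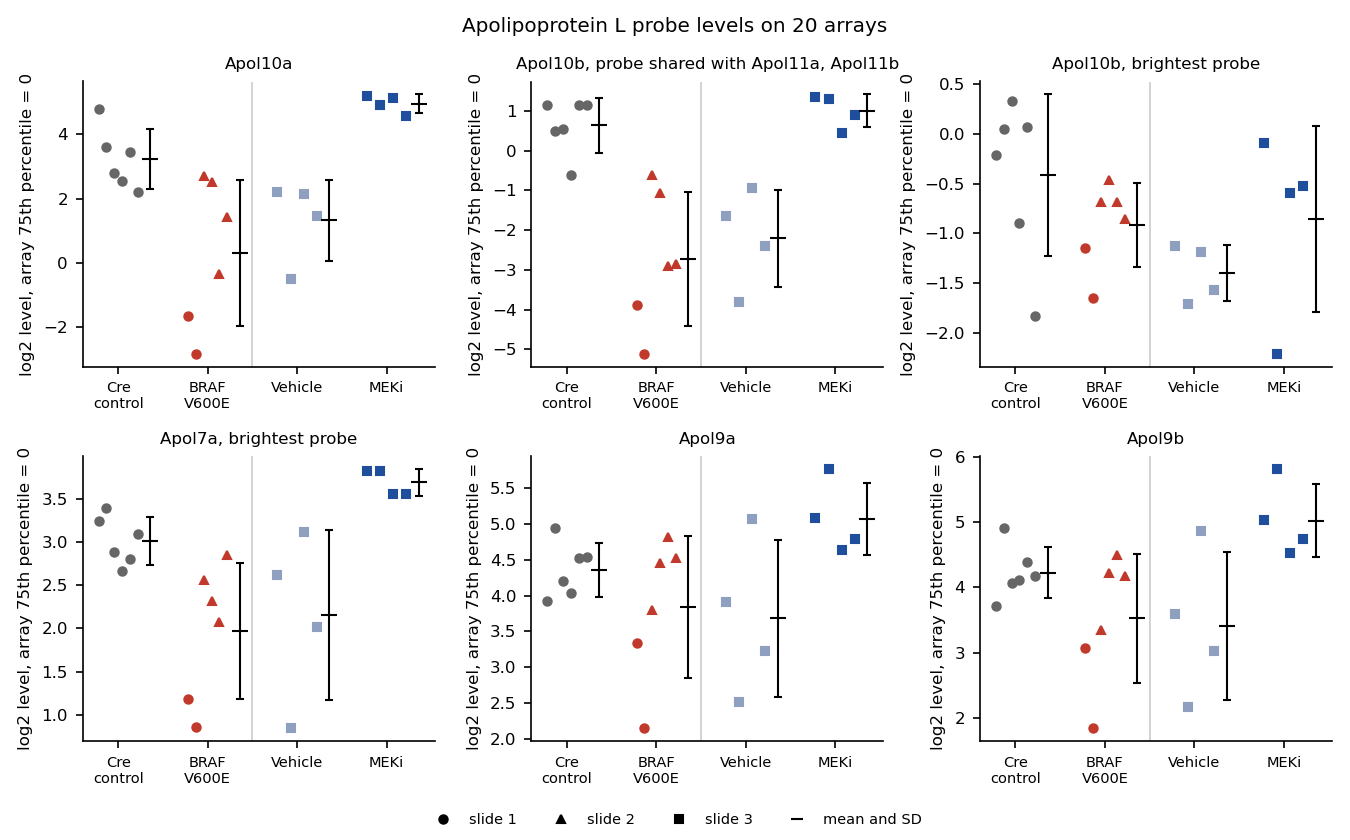
Normalized log2 level (array 75th percentile at 0) of 6 probes on the 20 arrays, by group on the x axis, with 1 point per array, the marker giving the slide and the bar the mean and SD of the group. MEKi arrays lie above all Vehicle arrays for Apol10a, Apol7a and the Apol10b probe shared with Apol11a and Apol11b, and BRAFV600E replicates 1 and 2 (slide 1) are the lowest of their group for Apol10a, Apol7a, Apol9a, Apol9b and both Apol10b probes shown.

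The Apol10b probe shared with Apol11a and Apol11b had differences close in size to those of Apol10a. It read −1.65, −3.80, −0.95 and −2.39 on the Vehicle arrays and 1.34, 1.31, 0.45 and 0.90 on the MEKi arrays, without overlap, a difference of 3.20 (SE 0.56), or 9.18-fold. On the Cre control arrays it ran from −0.61 to 1.16 with a median of 0.84, and on the BRAFV600E arrays from −5.11 to −0.61 with a median of −2.87. Of the 6 BRAFV600E arrays, 5 lay below every Cre control array, and the difference was −3.37 (SE 0.67), or 10.4-fold lower. The lowest reading, −5.11 on BRAFV600E replicate 2, was not well above background. The 2 BRAFV600E arrays of slide 1 averaged −5.13 relative to the Cre control mean, and the 4 arrays of slide 2 averaged −2.49. The probes listed for Apol10b alone differed far less. The brightest of the 3 read −1.13, −1.70, −1.19 and −1.57 under Vehicle and −0.09, −2.20, −0.60 and −0.53 under MEKi, a difference of 0.54 (SE 0.43) with overlap, since MEKi replicate 2 was the lowest of the 8. It was 0.99 without that array and 0.29 without MEKi replicate 1. In BRAFV600E it was lower by 0.50 (SE 0.34), also with overlap. The third probe differed by 0.70 (SE 0.43) and −1.16 (SE 0.44), and only 1 of 4 Vehicle arrays and 2 of 6 BRAFV600E arrays read it well above background. The larger differences under the name Apol10b came from the probe that also lists Apol11a and Apol11b.

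For Apol7a all 3 probes had the same direction in each comparison. The brightest (chr15:77218745-77218804) read 2.62, 0.84, 3.12 and 2.02 on the Vehicle arrays and 3.82, 3.82, 3.56 and 3.55 on the MEKi arrays. The MEKi arrays lay in a narrow band above all Vehicle arrays, and the difference was 1.53 (SE 0.44), or 2.90-fold. The other Apol7a probes differed by 1.54 (SE 0.39) and 1.24 (SE 0.30), likewise without overlap. In the first comparison the brightest probe ran from 2.66 to 3.40 with a median of 2.98 in Cre control and from 0.86 to 2.85 with a median of 2.20 in BRAFV600E. It was lower on 5 of 6 BRAFV600E arrays than on any Cre control array, by 1.04 on average (SE 0.32), or 2.05-fold. The other probes were lower by 1.29 (SE 0.33) and 1.01 (SE 0.50). The last of these, the third probe, read −5.28 on BRAFV600E replicate 3, where it was not well above background. Its medians were −1.76 in Cre control and −2.50 in BRAFV600E.

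Apol9a and Apol9b, the phosphatidylethanolamine-binding pair, had the smallest differences in BRAFV600E among the members besides the brightest Apol10b probe. Apol9a read 3.91, 2.51, 5.08 and 3.23 on the Vehicle arrays and 5.09, 5.77, 4.63 and 4.79 on the MEKi arrays. The groups overlapped because Vehicle replicate 3 was above 2 MEKi arrays, and the difference was 1.39 (SE 0.52), or 2.62-fold. Apol9b read 3.59, 2.16, 4.87 and 3.03 against 5.03, 5.82, 4.53 and 4.74, a difference of 1.62 (SE 0.55), or 3.07-fold. In the first comparison Apol9a ran from 3.92 to 4.94 with a median of 4.37 in Cre control and from 2.14 to 4.82 with a median of 4.13 in BRAFV600E, a difference of −0.52 (SE 0.40). Apol9b ran from 3.72 to 4.91 and from 1.83 to 4.50 with medians of 4.15 and 3.76, a difference of −0.70 (SE 0.40). Without BRAFV600E replicate 2 the differences were −0.18 and −0.37. The low end of both genes came from slide 1. BRAFV600E replicates 1 and 2 averaged −1.62 (Apol9a) and −1.78 (Apol9b) relative to the Cre control mean, and the 4 arrays of slide 2 averaged 0.04 and −0.17. The log2 difference between the Apol9a and Apol9b probes stayed between −0.07 and 0.45 over the 20 arrays, and whether either probe reads its own gene alone was not tested.

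Apol6 could not be measured in either comparison. Its probes (chr15:76875926-76875985 and chr15:76881350-76881409) read between −7.31 and −3.67 on all arrays, well above background on 3 of 6 Cre control, 2 of 6 BRAFV600E, 0 of 4 Vehicle and 1 of 4 MEKi arrays for the first and on 0, 2, 0 and 1 for the second. No fold is given for it.

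**Figure D2:**
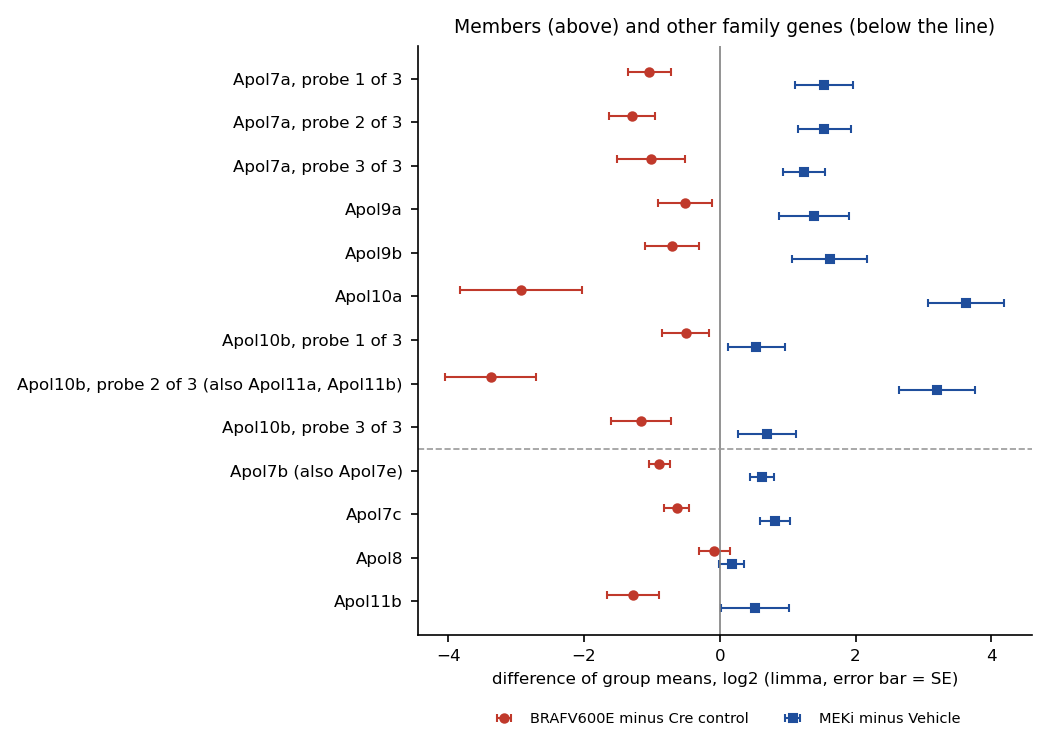
Difference of group means on the log2 scale (x axis) for each family probe that passed the filter on dim probes, from a limma fit of every probe, with the SE as error bar, red circles for BRAFV600E minus Cre control and blue squares for MEKi minus Vehicle. All 9 member probes lie below 0 in red and above 0 in blue, with Apol10a and the second Apol10b probe the farthest from 0. The third Apol10b probe passed the filter mainly through the groups where it was higher.

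Of the 11 member probes, 9 passed the filter, and all 9 were lower in BRAFV600E and higher under MEKi. The third Apol10b probe passed mainly through the groups where it was higher, so the filter favoured its direction. It was well above background on 5 of 6 Cre control, 2 of 6 BRAFV600E, 1 of 4 Vehicle and 4 of 4 MEKi arrays. The 2 comparisons share no array. Among the 5 members with a measurable probe, limma called 1 (Apol7a, lower) in BRAFV600E, where 12.9% of 19040 genes tested were called in either direction and 6.51% were called lower, and 1 (Apol10a, higher) under MEKi, where 1.93% of 19231 genes were called and 1.05% were called higher. With every probe tested, 2 of the 9 member probes were called lower in BRAFV600E (4.83% of all probes) and 2 of the 9 higher under MEKi (0.691% of all probes). In each comparison 1 of these was the probe that also lists Apol11a and Apol11b. No overlap between groups was found for 0 of 5 members in BRAFV600E, where 3.26% of all genes were lower without overlap, and for 2 of 5 under MEKi, where 6.34% were higher without overlap. These counts use the comparisons that chose the members and are given as a description. The median log2 difference of the 5 members was −0.70 in BRAFV600E, beside −0.02 over all genes tested, and 1.53 under MEKi, beside 0.04.

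The Apol7a call in BRAFV600E was made in 8 of 21 alternative fits. No member was called with the Y-linked level as a covariate, with array weights, without the filter on dim probes or in 8 of the 12 fits that left out 1 array. With slide as a block, which rests on the 8 arrays of slide 1, 4 of the 5 were called lower (Apol7a, Apol9a, Apol9b and Apol10a) beside 8.24% of all genes called in either direction in that fit, and the differences were −1.99, −1.62, −1.78 and −5.48. Without scaling between arrays the median of all genes shifted by 0.81 to 0.79 in this comparison, and Apol9a (0.30), Apol9b (0.10) and the brightest Apol10b probe (0.31) then had a difference above 0, still below that median.

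In the BRAFV600E and Vehicle groups, the array that was lowest for Apol10a, Apol7a, Apol9a and Apol9b was also the lowest for mature enterocyte genes. In Cre control this held for none of the 4 genes, and in MEKi for Apol9a and Apol9b only. The mean level of the 14 mature enterocyte markers was 5.29 on BRAFV600E replicate 1, lower still on replicate 2 and between 5.86 and 5.96 on the other BRAFV600E arrays, and 5.21 on Vehicle replicate 2 against 6.44, 6.39 and 6.24 on the other Vehicle arrays. Apol10a, Apol7a, Apol9a and Apol9b were each lowest on BRAFV600E replicate 2 among the BRAFV600E arrays and on Vehicle replicate 2 among the Vehicle arrays. The mean of the 12 general epithelial markers was also lowest on BRAFV600E replicates 1 and 2 (5.77 and 5.81, with 5.99 to 6.23 on the other 4 arrays), whereas among the Vehicle arrays it was lowest on replicate 4 (6.10), with 6.15 on replicate 2. On Cre control and MEKi arrays the enterocyte mean lay between 5.96 and 6.24 and between 6.06 and 6.52. Of the 14 markers, 3 rose (Alpi, Ada and Rbp2) and 2 fell (Mep1a and Fabp2) in BRAFV600E, and limma called 0 under MEKi, with 3 at an unadjusted p under 0.05. Under MEKi 9 of the 14 were higher and 5 lower. Without overlap between groups, 3 were lower and 0 higher. The part of enterocyte content in the members' differences was not tested.

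Lymphocyte markers were on average lower in BRAFV600E and higher under MEKi, as the members were. The mean of 16 T and intraepithelial lymphocyte markers ran from 0.22 to 1.01 in Cre control, from −0.38 to 0.75 in BRAFV600E, from −0.39 to 0.19 under Vehicle and from 0.23 to 1.04 under MEKi, so that MEKi and Vehicle did not overlap. Of the 16, 3 fell in BRAFV600E (Cd3g, Lck and Cd8a) and 0 were called under MEKi by limma, with 9 at an unadjusted p under 0.05. The mean of 15 of 16 macrophage and dendritic cell markers, without Xcr1, which was well above background on 1 array, ran from 0.79 to 1.25, from 0.33 to 0.80, from 0.33 to 0.66 and from −0.12 to 0.58 in the same order of groups. Of these 15, limma called 5 lower in BRAFV600E and 0 under MEKi. Of 11 B and plasma cell markers, 9 were lower in BRAFV600E, with 1 called lower and 1 called higher. Under MEKi 6 of 10 were higher, with 1 called lower and 0 called higher. The Y-linked level was high on all 4 MEKi arrays (−1.32 to −0.99) and low on Vehicle replicates 2 and 4 (−5.97 and −6.28), which were also the lower pair of Vehicle arrays for Apol10a, Apol7a, Apol9a and Apol9b. With the Y-linked level as a covariate the MEKi difference of Apol10a was 2.80 and it was no longer called, and those of Apol7a, Apol9a and Apol9b were 0.82, 0.56 and 0.78. Over all genes the calls then went from 371 to 54. The part of immune cell content and sex in these differences was not tested.

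**Figure D3:**
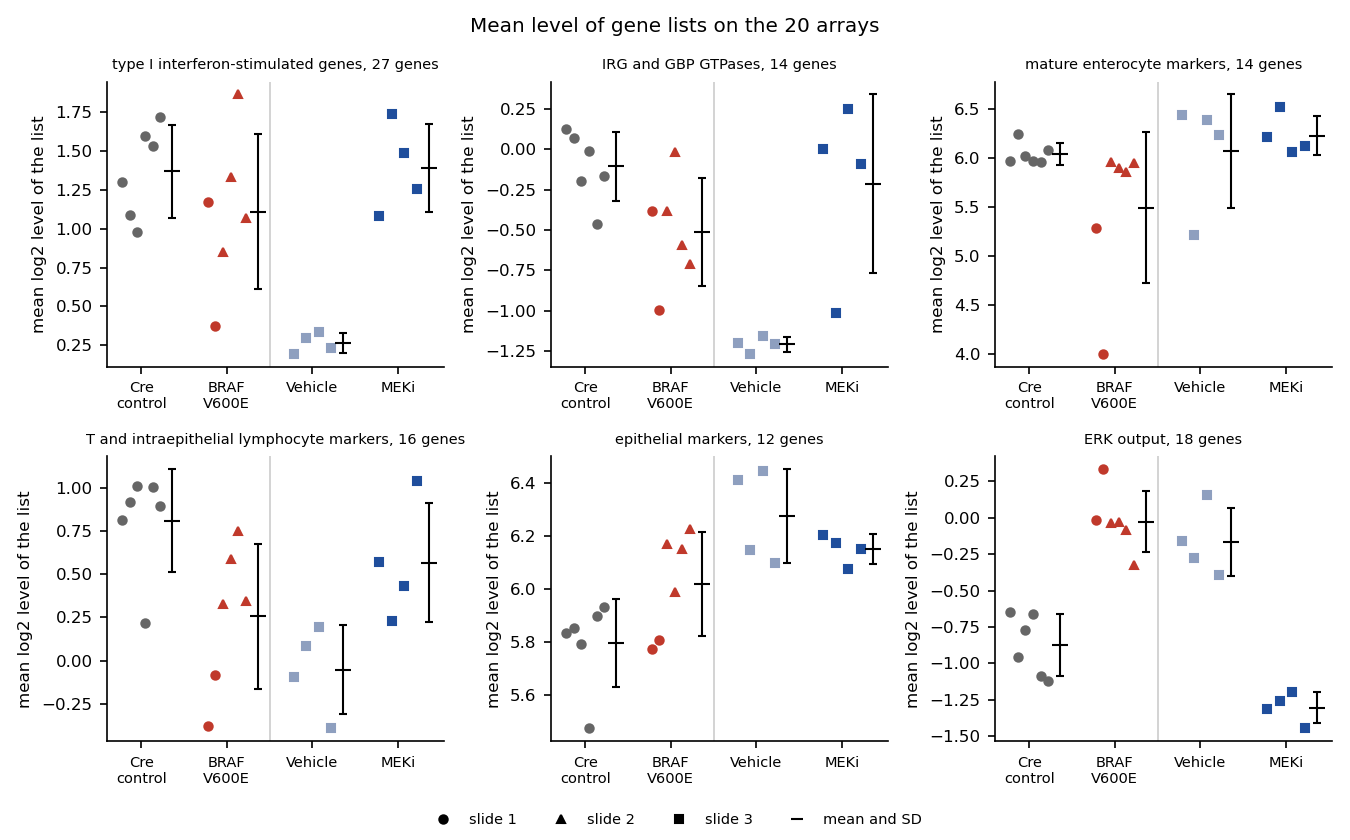
Mean log2 level of 6 gene lists (y axis) on the 20 arrays, by group on the x axis, with 1 point per array, the marker giving the slide and the bar the mean and SD. The interferon-stimulated list separates MEKi from Vehicle, while the mature enterocyte list drops on BRAFV600E replicates 1 and 2 and Vehicle replicate 2.

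The other genes of the family that the array measured went the same way in most cases. In BRAFV600E, Apol7b fell by 0.89 (SE 0.15, limma adjusted p 0.00372), Apol7c, which acts in dendritic cells, fell by 0.64 (SE 0.18, limma adjusted p 0.0411) and Apol11b fell by 1.28 (SE 0.39, limma adjusted p 0.0477), so 3 of 4 tested were called lower. For Apol7b and Apol7c all 6 BRAFV600E arrays lay below every Cre control array. The Apol7b probe was also listed for Apol7e, and Apol11b was well above background on only 2 of 6 BRAFV600E arrays. The Apol11b difference was −0.47 for the 2 BRAFV600E arrays on the slide of the controls and −1.68 for the 4 arrays of slide 2, which held no control. Under MEKi limma called 0 of the 4, with 2 at an unadjusted p under 0.05. Apol7b read −0.32, −0.84, −0.55 and −0.23 against −1.13, −0.95, −0.96 and −1.39 under Vehicle, a difference of 0.62, and Apol7c differed by 0.81, both without overlap. Apol8 differed by −0.08 (SE 0.22) and 0.18 (SE 0.19), and Apol7d, on chromosome 1, was not well above background on any array. Vehicle replicate 2 was again the lowest for Apol7c, at 2.49, but not for Apol7b.

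The position of the probes was compared with that of their neighbours. The member probes spanned 691 kb of chromosome 15. Within 500 kb of that span lay 34 genes without an Apol name that had a measurable probe. In BRAFV600E 2 of the 34 rose and 1 fell, with a median difference of −0.05, and under MEKi 1 of 32 rose and 0 fell, with a median of 0.03. The gene that rose under MEKi was Gm8221, a pseudogene between family members, at 0.82 (SE 0.12, limma adjusted p 0.0205). In BRAFV600E it differed by −0.42 (SE 0.17) and was not called. Whether Gm8221 is a copy of a family gene, or its probe reads one, was not tested. The other genes inside the span, Rbfox2 and 1700109K24Rik, differed by 0.10 and 0.07 in BRAFV600E and 0.02 and −0.14 under MEKi. The nearest genes on the far side were Myh9, the heavy chain of nonmuscle myosin, with 0.20 and −0.16, Txn2 with −0.02 and 0.18 and Foxred2 with −0.60 and 0.08, and on the near side Gm35933, 1110038F14Rik and Zfp647, none of them called.

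**Figure D4:**
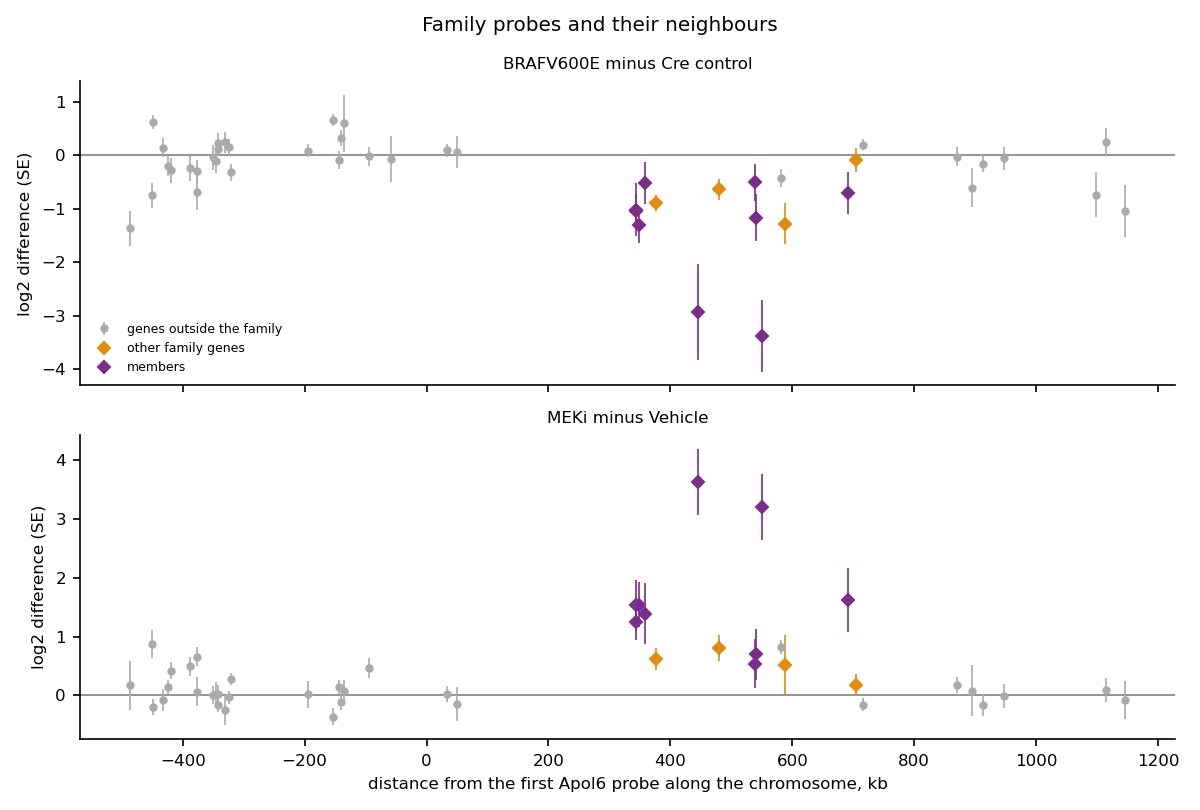
Log2 difference with SE (y axis) of family probes and of neighbouring genes against the distance in kb from the first Apol6 probe (x axis), for BRAFV600E minus Cre control above and MEKi minus Vehicle below. Member probes in purple and other family genes in orange reach −3.37 above and 3.63 below. The neighbours in grey (34 above, 32 below) run from −1.36 to 0.66 above and from −0.36 to 0.88 below. Their medians are −0.05 and 0.03, beside −0.70 and 1.53 for the 5 members tested.

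Interferon-stimulated genes rose under MEKi. Of 27 type I interferon-stimulated genes, 14 rose and 0 fell, with a median difference of 1.15, and 25 of the 27 had no overlap between groups. Zbp1, a sensor of nucleic acids, rose by 2.49 (limma adjusted p 0.00469) and Ifit1, an inhibitor of viral translation, by 2.16 (limma adjusted p 0.0129). The list mean ran from 0.19 to 0.33 on the Vehicle arrays and from 1.08 to 1.74 on the MEKi arrays, and Vehicle replicate 2, the lowest for the members, stood at 0.30. In BRAFV600E 1 of the 27 fell (Trim30a, by 1.06) with 23 of 27 lower and a median of −0.23, and the list mean ran from 0.98 to 1.72 in Cre control and from 0.37 to 1.87 in BRAFV600E. The IRG and GBP families of interferon-induced GTPases, which attack vacuoles of intracellular microbes, had 3 of 14 called higher under MEKi (Igtp by 2.69, Gbp6 by 2.05 and Irgm1 by 1.62) and 3 of 14 called lower in BRAFV600E (Gbp4 by 0.93, Gbp2 by 0.82 and Gbp3 by 0.74). Members of these families share sequence, so a probe may read more than 1 gene.

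Of 20 interferon signalling genes tested (ligands, receptors, kinases and factors), 3 rose under MEKi, among them the feedback inhibitor Socs3 (1.18, limma adjusted p 0.0225) and Stat2 (0.69, limma adjusted p 0.0408). In BRAFV600E Irf2 rose by 0.74 (limma adjusted p 0.00622) and 0 of the 20 fell. Ifnb1 was not well above background on any array. Ifng was well above background on 3 of 6 Cre control, 5 of 6 BRAFV600E, 1 of 4 Vehicle and 4 of 4 MEKi arrays. It differed by 0.48 (SE 0.46) in BRAFV600E and 1.46 (SE 0.46) under MEKi and was called in neither comparison. ERK output genes, which follow the activity of the kinase cascade below BRAF and MEK, had 12 of 18 called higher and 1 lower in BRAFV600E and 7 of 18 called lower under MEKi, among them Etv4 (2.50 and −2.95) and Dusp4 (1.65 and −1.70). The lipid-carrying apolipoproteins, which share only the name, had 1 of 13 called lower (Apoc3 by 1.41) and 1 higher (Apom by 1.38) in BRAFV600E. Under MEKi limma called 0 of 13, with 1 at an unadjusted p under 0.05. That gene was Apoc3, which was higher by 1.33 under MEKi (SE 0.27, limma adjusted p 0.05003).

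How the members varied together within groups was described by Pearson correlations over the 20 arrays after the mean of each group had been subtracted, with no p because the arrays share slides and tissue makeup. Apol9a and Apol9b correlated at 0.99. Apol10a correlated at 0.87 with the shared Apol10b probe, at 0.47 with the brightest Apol10b probe and at −0.14 with the third. Apol7a correlated at 0.83 with Apol9a, at 0.80 with Apol9b and at 0.82 with Apol10a, and Apol10a at 0.57 with Apol9a. The third Apol7a probe followed the brightest only at 0.12, and its lowest value, −5.28, was that of BRAFV600E replicate 3.

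**Figure D5:**
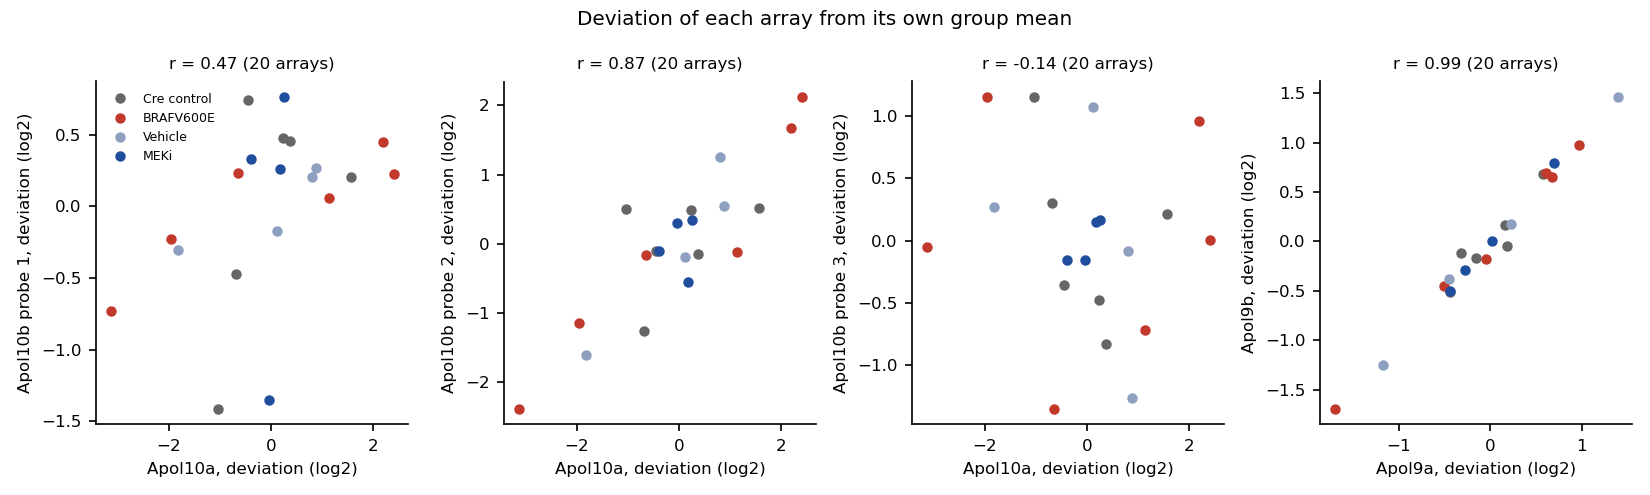
Deviation of each of the 20 arrays from its own group mean on the log2 scale, for Apol10a (x axis) against the 3 Apol10b probes and for Apol9a against Apol9b, coloured by group. Points follow a line for the Apol9 pair (r = 0.99) and for the second, shared Apol10b probe (r = 0.87), and scatter for the other Apol10b probes.

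Genes outside the family with the most similar deviations, out of 18349 compared over the 20 arrays, were for Apol7a Soat2, which esterifies cholesterol in enterocytes, Lrba, Pepd, Cyp4f14 and Slc3a2 (r from 0.92 to 0.95). For Apol10a they were Mro, the amino acid transporter Slc36a1, Cpne2, Rtn4r and the lactate transporter Slc5a12 (0.87 to 0.89). For Apol9a they were Hes2, H2-K2, Ttc19, the creatine transporter Slc6a8 and AU040972 (0.89 to 0.90), and for Apol9b H2-K2, Hes2, Ttc19, Mogat2, which rebuilds dietary fat in enterocytes, and H2-Bl (0.86 to 0.89). The brightest Apol10b probe was nearest to Adamts14, Tlr12, Itprip, Zfp653 and Atf5 (0.91 to 0.96), a set with no gene in common with those of Apol10a. The median correlation with all genes was between 0.04 and 0.08 for each member.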

How the data were processed

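Intestinal RNA of 20 mice was hybridised to 1-colour Agilent SurePrint G3 mouse arrays. Per the file headers, the authors scanned them with Agilent Feature Extraction 10.5.1.1, which subtracted background and wrote a linear processed intensity per spot, not normalized between arrays. The deposited series matrix held the same intensity (100% of spots within 0.5%). Control and outlier spots were left out, log2 was taken and each array's 75th percentile subtracted. Groups came from the labels. The treatment text, identical on all 20 arrays, describes atorvastatin in females and was not used. Of 56605 probes, 44334 were named through RefSeq (GRCm38.p6, names only). The brightest probe stood for a gene, tested when well above background on at least 6 of 12 or 4 of 8 arrays. limma 3.58.1 (R 4.3.3, lmFit and eBayes, two-sided) was fitted across all genes, with Benjamini-Hochberg adjustment and calls at an adjusted p under 0.05. It was also run on simulated data of independent arrays without slide, row or sex differences, which cannot show how those affect the calls. The members, gene lists and alternatives were chosen with earlier results of these data known. Named genes were all family genes, at most 4 called per list, the 3 nearest neighbours on each side with those between, and the 5 most alike. Probe coordinates are mm9, promoters GRCm38.p6. The labels do not say that the mice came from separate litters, so p-values measure the spread between these arrays. One gene of the lists is not reported here.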

Additional observations from a re-analysis of the deposited data

Results flagged for a closer look

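Of 31 groups of arrays in which a member probe was well above background throughout, 1 held an array far from the others. The second Apol7a probe (chr15:77223805-77223864, mm9) read −0.82 on Cre control replicate 4, against 0.23 on the nearest of the other 5 Cre control arrays, a gap of 0.69 of the range of the group. Chance flags about 1 group in 20 by this rule.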

How the results depend on the processing

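The number of members called lower in BRAFV600E was 1 of 5 as reported. It was 0 with the Y-linked level as a covariate (9.89% of all genes called), 0 with array weights (18.4%), 0 without a filter on dim probes (7.57%), 2 with every probe tested (10.4% of probes), 2 after quantile normalization (12.5%), 2 when a probe had to be well above background on every array (16.5%), 4 with slide as a block (8.24%) and 3 within slide 1 (3.84%), against 12.9% as reported. Leaving out 1 array gave 0 to 2, with 0 without BRAFV600E replicates 1, 2 or 5 or Cre control replicates 1, 2, 3, 5 or 6, and 2 without BRAFV600E replicate 3. Under MEKi, 1 of 5 was called higher as reported, 0 with the Y-linked level as a covariate (0.281% of all genes called, against 1.93% as reported) and 2 with every probe tested (1.24% of probes), and leaving out 1 array gave 0 to 1. Apol10a lost its call under MEKi without MEKi replicates 1, 3 or 4 or Vehicle replicate 4, with differences of 3.55, 3.57, 3.76 and 3.67. Without scaling between arrays the BRAFV600E differences of Apol9a (0.30), Apol9b (0.10) and Apol10b (0.31) changed sign, and the median of all genes was then 0.79. In all other alternatives run, the 5 measurable members kept their direction. The number of arrays limits the precision, and Apol6 lay near background. No paired analysis was possible because the replicate numbers only name the arrays.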
